A study of Homo sapiens with 6 samples.

Results

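The RNA polymerase I, II and III machinery is described here in K562 cells, a human erythroleukemia line that grows in suspension, after exposure to HR-19011, a compound known by its code name. Protein-coding genes were taken by symbol: every POLR1, POLR2 and POLR3 subunit gene, the RNA polymerase I factors TAF1A to TAF1D, UBTF and RRN3, and the RNA polymerase III factors GTF3A, GTF3C1 to GTF3C6, BRF1, BRF2, BDP1 and MAF1. This gave 50 genes of 46427 in the files; another 11 rows with matching symbols were pseudogenes or noncoding genes and were left out. The HR-19011 group held 3 libraries of cells given 10 µM of the compound for 24 h, and the vehicle group held 3 libraries of cells given 0.1% DMSO for 24 h. Both groups were labelled wild type, and the labels state neither the DMSO content of the HR-19011 cultures nor whether libraries of a group came from separate cultures. The p-values therefore set the group difference only against the spread among libraries within these groups, a spread that may be technical.

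Each polymerase makes its own class of RNA. RNA polymerase I transcribes the large ribosomal RNA precursor in the nucleolus, RNA polymerase II transcribes messenger RNA, and RNA polymerase III transcribes transfer RNA, 5S ribosomal RNA, U6 and other short RNAs. The enzymes have separate large catalytic subunits, share a group of small subunits, and are brought to their promoters by separate factors. RNA polymerases I and III take up much of the transcription of growing cells and are known to be restrained when nutrients or growth signals fail. The libraries read polyadenylated RNA, so what follows concerns the messenger RNAs that encode the machinery, not the activity of the enzymes or their RNA products.

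Values were FPKM, fragments scaled to transcript length and library size, which allow levels of different genes to be set side by side; the files give no read counts, so depth per library is unknown. Summed FPKM lay between 420661 and 427819 in the HR-19011 libraries and between 456639 and 467595 in the vehicle libraries. Transcripts of the mitochondrial genome held 13.3% to 13.7% of the sum in HR-19011 libraries and 18.8% to 19.8% in vehicle libraries. All 8 markers of K562 cells, among them HBG1, HBG2, HBZ, HBE1, GATA1, KLF1 and TFRC, were above 0 in every library, and their sum was 4249 to 4472 FPKM in HR-19011 libraries and 9871 to 10058 FPKM in vehicle libraries. Of markers of other cells, CD2 and MS4A1 were listed at 0 in all libraries and CSF1R and FCGR3A were at or near 0, whereas CD3D was listed at 11.6 to 12.1 FPKM in HR-19011 libraries and 6.08 to 9.09 FPKM in vehicle libraries. LYZ was listed at 12.2 to 13.2 FPKM in HR-19011 libraries and 11.1 to 12.0 FPKM in vehicle libraries. CD3E and CD3G, T cell markers like CD3D, were at 0.052 to 0.316 FPKM and 0.0795 to 0.187 FPKM over all libraries. CD14, a monocyte marker like LYZ, was at 0.0548 to 0.109 FPKM in HR-19011 libraries and 0.149 to 0.294 FPKM in vehicle libraries. The K562 sum, CD3D, LYZ and CD14 differed between the groups, and the part of these markers in the results was not tested. With totals made equal without mitochondrial and globin transcripts, the counts of members called were the same, 36 lower and 9 higher.

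Most genes of the polymerase machinery had lower RNA after HR-19011, and the steepest losses were in subunits. Of the 50 genes, 36 were lower and 9 higher in HR-19011 cells, and 5 did not pass the test (limma on log2(FPKM + 1), Benjamini-Hochberg adjusted p under 0.05 over 11856 tested genes). Among all tested genes, 84.4% were called in either direction, 38.0% lower and 46.4% higher, the shares against which the counts below are read. Of the members 72.0% were lower, against 38.0% of all genes. The members were chosen with earlier results of these data known, so these shares describe them and are not an independent test. All 50 genes exceeded the filter of a mean of 1 FPKM, so none was left out for low values. Their median log2 fold change was -0.48, against 0.07 for all tested genes. A fall of at least 2-fold, a log2 fold change of -1 or less, was found in the deposited values for 12 members, all of them subunits, and for 6.45% of all tested genes; no member rose that far, against 12.0% of all tested genes. With TMM scaling, a trimmed-mean scaling of the libraries, 15 members fell that far, the initiation factors UBTF (-1.18) and GTF3C6 (-1.08) and the subunit POLR2D (-1.02) among them. With a pseudocount of 5 in place of 1, 9 did, without POLR1A (-0.92), POLR1B (-0.93) and POLR1F (-0.91). Values of all HR-19011 libraries lay below all vehicle libraries for 36 members, against 38.3% of tested genes, and above them for 9 members, against 46.9%. Log2 fold changes here are of FPKM + 1, which understates changes of low genes; a fold without log2 is 1 group mean of FPKM divided by the other. In bulk RNA, fewer cells with a transcript and less of it per cell cannot be told apart.

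**Figure D1:**
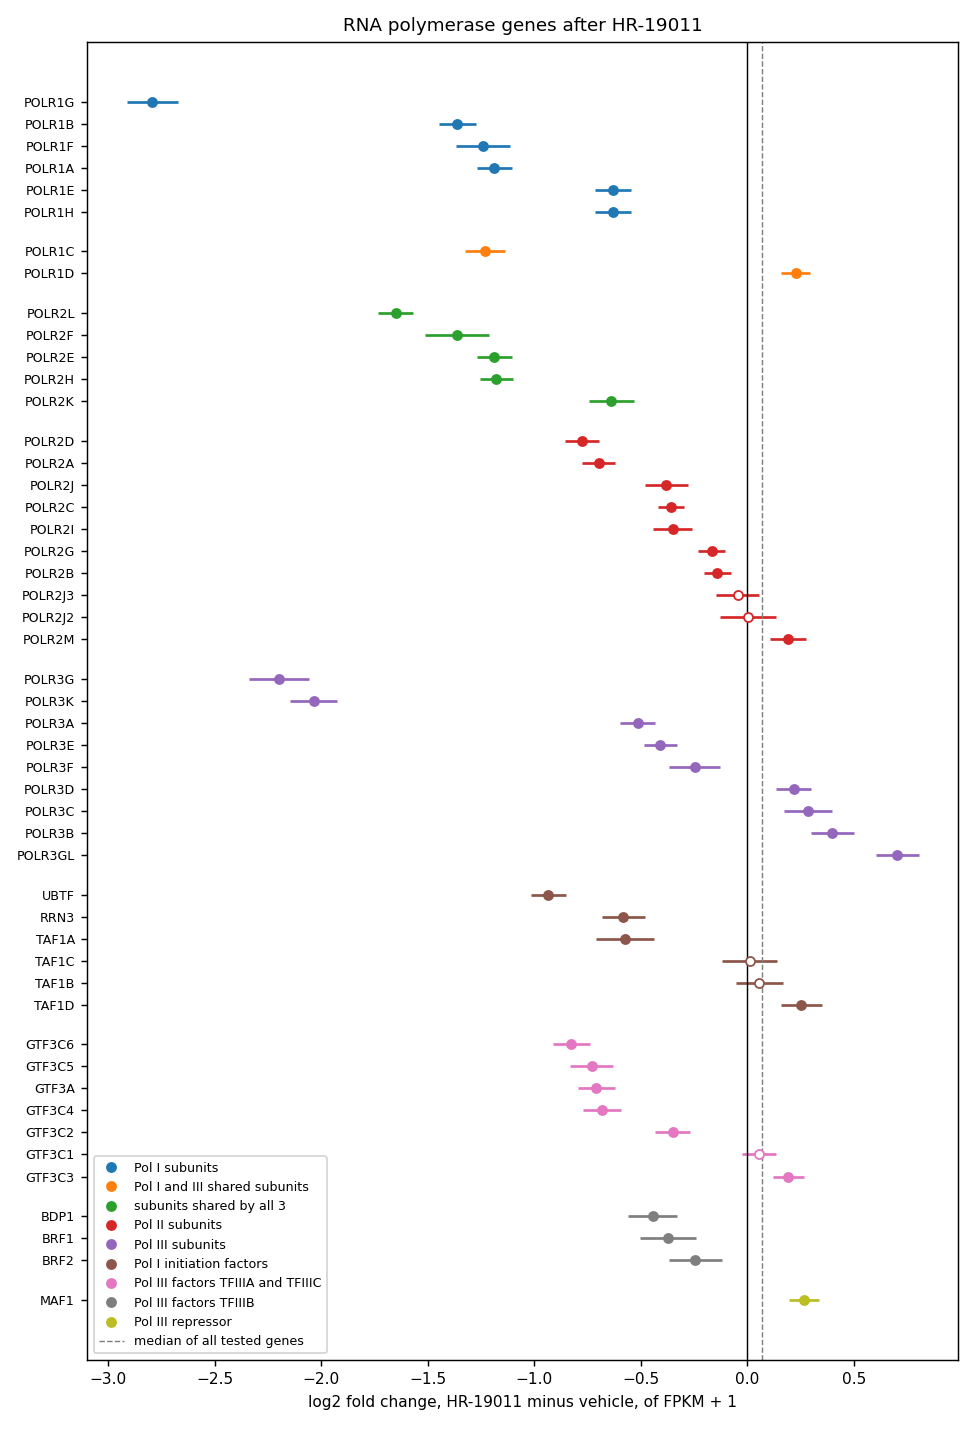
Log2 fold change of FPKM + 1 (HR-19011 minus vehicle, horizontal axis) of the members, grouped by class, with 95% confidence intervals from limma; filled points passed the test and open points did not. POLR1G at -2.79 and POLR3GL at 0.71 are the ends of the range, and the dashed line is the median of all tested genes, 0.07.

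**Figure D2:**
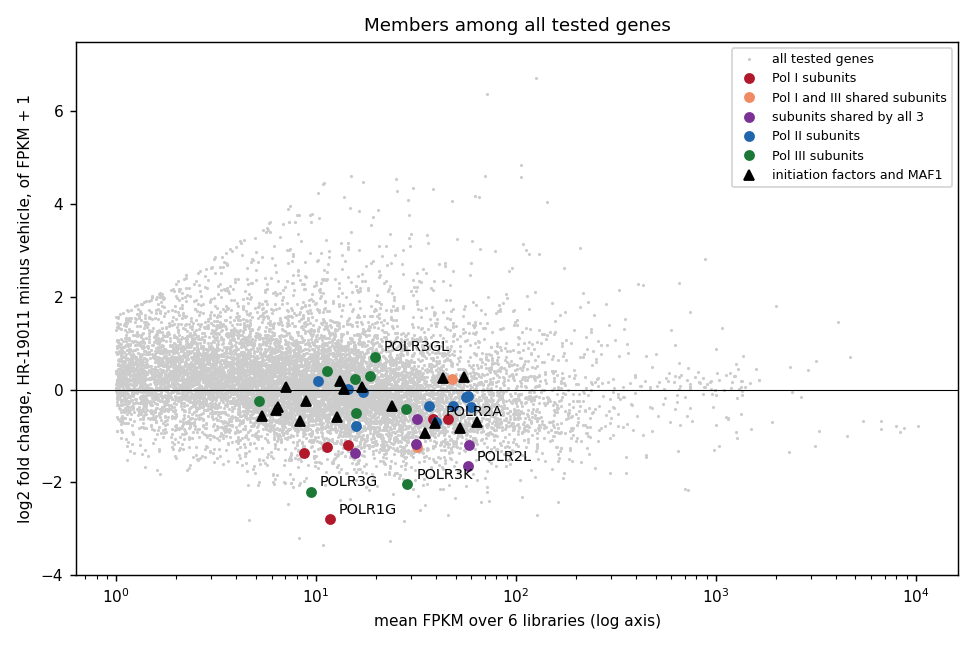
Log2 fold change (vertical axis) against mean FPKM over the 6 libraries (horizontal log axis) for all 11856 tested genes in grey, with subunits as coloured circles and initiation factors with MAF1 as black triangles. Most members lie under 0, with POLR1G, POLR3G and POLR3K near the lower edge of all genes.

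All 6 subunits found in RNA polymerase I alone fell, with log2 fold changes of -2.79 to -0.63 and a median of -1.21. POLR1G, which forms with POLR1E a dimer that sits on the enzyme and assists initiation and elongation, had the steepest fall of all members. POLR1G had 2.30, 2.10 and 2.23 FPKM in HR-19011 libraries, against 20.7, 20.4 and 22.8 FPKM in vehicle libraries. The treated values were far under all vehicle values, and each group was tight. The ratio of means was 9.62-fold, the log2 fold change was -2.79 (SE 0.0523, limma adjusted p = 3.54e-10), and only 5 of the 11856 tested genes had a lower log2 fold change. Its dimer partner fell far less. POLR1E had 29.7, 31.5 and 29.1 FPKM in HR-19011 libraries, against 47.0, 46.3 and 48.3 FPKM in vehicle libraries. POLR1E fell 1.57-fold (log2 fold change -0.63, SE 0.0367, limma adjusted p = 2.91e-07), without overlap between the groups. On GRCh38, POLR1G lies on chromosome 19 from 45406644 to 45410737 and POLR1E on chromosome 9 from 37485948 to 37503697. In GENCODE annotation 43.5% of the exon bases of POLR1G overlap exons of ERCC1 on the opposite strand, and ERCC1 averaged 37.3 FPKM in HR-19011 and 17.5 FPKM in vehicle libraries. The library kit keeps the strand, but the sources used here do not say whether counting used it, and the part of this overlap was not tested.

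The catalytic core of RNA polymerase I fell as well. POLR1A had 8.35, 8.49 and 8.39 FPKM in HR-19011 libraries, against 20.0, 20.2 and 21.1 FPKM in vehicle libraries. POLR1A encodes the largest subunit, and each treated library was below each vehicle library (2.43-fold, log2 fold change -1.19, SE 0.0355, limma adjusted p = 4.28e-09). POLR1B had 4.39, 4.37 and 4.51 FPKM in HR-19011 libraries, against 13.2, 12.9 and 12.7 FPKM in vehicle libraries. POLR1B, the second catalytic subunit, fell 2.92-fold (log2 fold change -1.36, SE 0.0378, limma adjusted p = 2.84e-09), so the vehicle libraries were again separate from the treated ones. POLR1F had 6.66, 6.27 and 6.04 FPKM in HR-19011 libraries, against 17.3, 15.1 and 16.5 FPKM in vehicle libraries. POLR1F encodes the stalk subunit to which the initiation factor RRN3 binds, and fell 2.58-fold with no overlap of groups. POLR1H had 34.6, 37.6 and 34.6 FPKM in HR-19011 libraries, against 55.6, 55.7 and 55.8 FPKM in vehicle libraries. POLR1H, a small zinc-binding subunit involved in RNA cleavage and termination, fell 1.56-fold, less than the others and about as much as POLR1E. Of POLR1H exon bases, 24.5% overlap the pseudogene ZNRD1ASP on the opposite strand. ZNRD1ASP averaged 4.06 FPKM in HR-19011 and 2.82 FPKM in vehicle, and the part of this overlap was not tested.

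**Figure D3:**
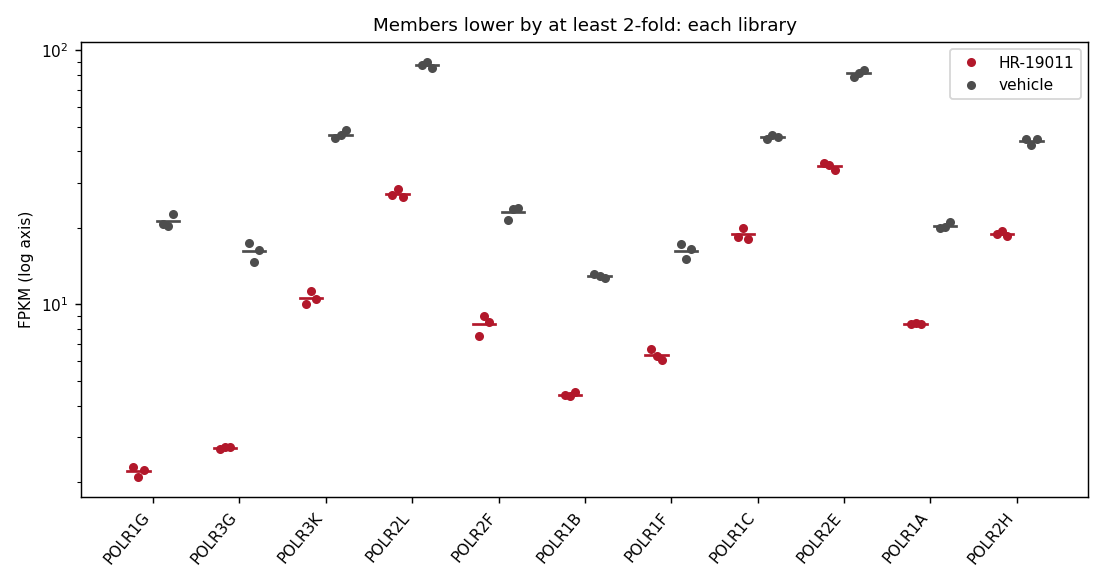
FPKM in each library (vertical log axis) for 11 of the 12 members that fell by at least 2-fold, with HR-19011 libraries in red left of vehicle libraries in grey and bars at group means. In each gene drawn the 3 red points lie under the 3 grey points, and the gap is widest for POLR1G, 2.10 to 2.30 FPKM against 20.4 to 22.8 FPKM.

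Promoters of members are shown to set the letters upstream of genes that fell together, POLR1G, POLR1B and POLR1C, beside those of POLR3GL, which rose. Sequences are RefSeq, GRCh38.p14, for 39 of the 50 members with an entry, and cover the 250 bases before the annotated start, read 5′ to 3′ on the gene's strand. Capitals mark any match, on either strand, to CACGTG (the E-box bound by MYC and related factors), TGATGNAA (a core of the composite element bound by ATF4 or CHOP with C/EBP factors), CCGGAAG (the ETS core) or CGCNTGCG (the core of the NRF1 motif); matches of different motifs may overlap. Shown are chr19:45406394-45406643 on the plus strand for POLR1G, chr2:112541786-112542035 on the plus strand for POLR1B, chr6:43516839-43517088 on the plus strand for POLR1C and chr1:145964440-145964689 on the plus strand for POLR3GL.
POLR1G: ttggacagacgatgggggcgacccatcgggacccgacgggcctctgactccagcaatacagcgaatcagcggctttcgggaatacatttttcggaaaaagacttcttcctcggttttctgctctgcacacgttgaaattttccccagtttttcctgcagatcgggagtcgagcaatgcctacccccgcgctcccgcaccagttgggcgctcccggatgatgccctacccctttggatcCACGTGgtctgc
POLR1B: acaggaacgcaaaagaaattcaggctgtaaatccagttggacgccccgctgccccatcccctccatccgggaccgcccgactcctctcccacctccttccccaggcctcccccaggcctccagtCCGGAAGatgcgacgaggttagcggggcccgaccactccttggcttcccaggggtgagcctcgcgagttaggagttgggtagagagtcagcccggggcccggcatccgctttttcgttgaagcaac
POLR1C: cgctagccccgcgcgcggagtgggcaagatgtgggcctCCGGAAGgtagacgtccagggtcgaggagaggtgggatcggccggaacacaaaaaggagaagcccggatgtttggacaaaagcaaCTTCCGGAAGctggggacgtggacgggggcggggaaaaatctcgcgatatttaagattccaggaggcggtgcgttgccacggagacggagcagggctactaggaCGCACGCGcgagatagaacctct
POLR3GL: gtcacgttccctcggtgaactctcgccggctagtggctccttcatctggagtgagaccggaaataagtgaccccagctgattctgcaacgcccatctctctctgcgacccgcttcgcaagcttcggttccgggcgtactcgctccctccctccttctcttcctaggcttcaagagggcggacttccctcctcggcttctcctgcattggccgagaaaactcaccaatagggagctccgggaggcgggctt
The POLR1G window holds an E-box whose first base is 12 bases before the start. The POLR1B window holds 1 ETS core. The POLR1C window holds 3 matches to the ETS core, of which a pair on opposite strands overlap, and an NRF1 core near its start, and the POLR3GL window holds none of the 4 motifs. Other members that rose as deposited did hold matches. POLR3C had an E-box and an ETS core, TAF1D an ETS core and GTF3C3 an NRF1 core. The E-box was in 6 of 39 member windows (15.4%), which belong to POLR1G, POLR3A, POLR3C, GTF3C2, GTF3C4 and GTF3C6, and in 9.19% of the 8774 windows of tested genes. The ETS core was in 10 of 39 (25.6%) against 18.2%, the NRF1 core in 13 of 39 (33.3%) against 18.3%, and TGATGNAA in 0 of 39 against 1.31%. Among the 10 members with a window that fell at least 2-fold, 1 held the E-box, 3 the ETS core and 5 the NRF1 core. Among the other 29 members with a window, 5 held the E-box, 7 the ETS core and 8 the NRF1 core. A link of the motifs to the changes was not tested. A match describes the letters and is not evidence of binding.

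All 5 subunits common to the 3 polymerases fell, 4 of them at least 2-fold, and their median log2 fold change was -1.19. POLR2L had 26.9, 28.5 and 26.4 FPKM in HR-19011 libraries, against 87.8, 89.6 and 85.5 FPKM in vehicle libraries. POLR2L, a small zinc-binding subunit of the core, fell 3.22-fold (log2 fold change -1.65, SE 0.0356, limma adjusted p = 6.84e-10), and its groups did not overlap. POLR2E had 36.0, 35.4 and 33.9 FPKM in HR-19011 libraries, against 78.1, 81.5 and 83.9 FPKM in vehicle libraries. POLR2E, a subunit of the jaw that grips downstream DNA, fell 2.32-fold, again with separate groups. POLR2F had 7.54, 9.00 and 8.56 FPKM in HR-19011 libraries, against 21.5, 23.6 and 24.0 FPKM in vehicle libraries. POLR2F, an assembly and stability subunit, fell 2.76-fold. POLR2H had 18.9, 19.4 and 18.6 FPKM in HR-19011 libraries, against 44.9, 42.6 and 45.0 FPKM in vehicle libraries. POLR2H, a further small common subunit, fell 2.33-fold, and the spread within each group of these genes was far smaller than the gap between groups. POLR2K, another small zinc-binding subunit, fell least, to 24.9 ± 1.19 FPKM in HR-19011, against 39.4 ± 1.87 FPKM in vehicle (SD, n = 3 each; log2 fold change -0.64). POLR2L lies on chromosome 11 from 839721 to 842529, where 22.5% of its exon bases overlap CD151 on the opposite strand, a gene with means of 54.8 FPKM in HR-19011 and 67.4 FPKM in vehicle; the part of that overlap was not tested.

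The pair that RNA polymerases I and III have in common, POLR1C and POLR1D, forms the platform on which both enzymes assemble, and its genes moved apart. POLR1C had 18.4, 20.0 and 18.2 FPKM in HR-19011 libraries, against 44.6, 46.6 and 45.5 FPKM in vehicle libraries. POLR1C fell 2.42-fold (log2 fold change -1.23, SE 0.0409, limma adjusted p = 8.00e-09), with separate groups. POLR1D had 52.3, 51.5 and 51.3 FPKM in HR-19011 libraries, against 45.4, 43.3 and 43.3 FPKM in vehicle libraries. POLR1D was 1.17-fold higher (log2 fold change 0.23, SE 0.0298, limma adjusted p = 8.26e-05), a difference that passed the test as deposited and turned to -0.024 after TMM scaling.

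No subunit of RNA polymerase II alone changed by 2-fold as deposited, and POLR2D alone did so after TMM scaling (log2 fold change -1.02). Of 10 genes in its class, 7 fell, 1 rose and 2 did not pass the test, and the median log2 fold change was -0.26. POLR2A, POLR2B, POLR2C, POLR2D, POLR2G, POLR2I and POLR2J all fell as deposited. The genes that did not fall were POLR2M, which encodes an inhibitor of the enzyme, and POLR2J2 and POLR2J3, copies of POLR2J. POLR2A had 29.4, 31.1 and 30.2 FPKM in HR-19011 libraries, against 48.8, 48.9 and 51.1 FPKM in vehicle libraries. POLR2A, the catalytic subunit that carries the C-terminal repeat domain, fell 1.64-fold (log2 fold change -0.70, SE 0.0338, limma adjusted p = 8.60e-08), and the groups were separate. It lies on chromosome 17 from 7484366 to 7514616. POLR2B had 55.6, 53.9 and 55.2 FPKM in HR-19011 libraries, against 61.8, 59.4 and 60.8 FPKM in vehicle libraries. POLR2B, the second catalytic subunit, was only 1.10-fold lower (log2 fold change -0.14, SE 0.0282, limma adjusted p = 0.00133), a small but separate shift that turned to 0.014 after quantile normalization. The stalk subunits POLR2D and POLR2G, which work as a dimer, differed in size of fall. POLR2D averaged 11.4 ± 0.0991 FPKM in HR-19011 and 20.3 ± 0.611 FPKM in vehicle (SD, n = 3 each), a 1.78-fold fall. POLR2G averaged 53.2 ± 1.05 FPKM in HR-19011 and 59.9 ± 0.835 FPKM in vehicle, a 1.12-fold fall that no longer passed the test after quantile normalization or conversion to TPM.

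The assembly dimer of RNA polymerase II, POLR2C and POLR2J, fell 1.29-fold and 1.31-fold. POLR2I, which takes part in start site choice and transcript proofreading, fell 1.28-fold. Of POLR2I exon bases, 61.9% overlap AD001527.2 and 32.9% overlap TBCB, both on the opposite strand. TBCB averaged 25.3 FPKM in HR-19011 and 21.7 FPKM in vehicle, and the part of these overlaps was not tested. POLR2M, which encodes the RNA polymerase II inhibitor Gdown1, was 1.16-fold higher (log2 fold change 0.19, limma adjusted p = 0.00104), and -0.044 after TMM scaling. POLR2J2 and POLR2J3, close copies of POLR2J, did not pass the test as deposited; after TMM scaling both were called lower, at -0.24 for POLR2J2 and -0.29 for POLR2J3. POLR2J2 averaged 14.5 ± 0.851 FPKM in HR-19011 and 14.5 ± 0.950 FPKM in vehicle (SD, n = 3 each), with a 95% interval of the log2 fold change from -0.13 to 0.13. POLR2J3 averaged 16.9 ± 0.403 FPKM in HR-19011 and 17.5 ± 0.905 FPKM in vehicle, with an interval from -0.14 to 0.05. These 3 genes cannot be separated with certainty: 97.6% of the 50-base stretches in POLR2J2 transcripts, 40.8% in POLR2J3 and 36.7% in POLR2J also occur in transcripts of other genes, and the sources used here do not say how such reads were divided. In the same count, 19.5% of stretches of POLR2M were shared, mostly with the read-through gene GCOM1.

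RNA polymerase III subunits went in both directions: of 10 genes, 6 fell and 4 rose, with log2 fold changes from -2.20 to 0.71. After TMM scaling 2 were still higher. Of all tested genes, 38.0% fell and 46.4% rose as deposited, so a mix of directions is not particular to this class. The widest contrast lay between POLR3G and POLR3GL, which encode alternative versions of the same subunit; POLR3G is known for its high level in stem and cancer cells, and POLR3GL is the form found widely in differentiated tissues. POLR3G had 2.69, 2.76 and 2.75 FPKM in HR-19011 libraries, against 17.5, 14.7 and 16.4 FPKM in vehicle libraries. The treated libraries lay close together, far under all vehicle libraries. POLR3G fell 5.92-fold (log2 fold change -2.20, SE 0.0612, limma adjusted p = 2.85e-09). POLR3GL had 24.6, 24.7 and 24.4 FPKM in HR-19011 libraries, against 14.3, 14.1 and 15.7 FPKM in vehicle libraries. POLR3GL rose 1.67-fold (log2 fold change 0.71, SE 0.0438, limma adjusted p = 4.57e-07), with every treated library above every vehicle library. In vehicle cells the 2 genes were at like levels per length, and in HR-19011 cells POLR3GL was the higher one in all 3 libraries. POLR3G lies on chromosome 5 from 90473929 to 90514557 and POLR3GL on chromosome 1 from 145964690 to 145978848. Of their 50-base stretches, 2.44% for POLR3G and 12.1% for POLR3GL also occur in other genes. In GENCODE annotation 21.2% of POLR3GL exon bases overlap AC243547.3 on the same strand, a gene for which no level was available. The part of this overlap was not tested.

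Small and catalytic subunits of RNA polymerase III also differed. POLR3K had 10.0, 11.3 and 10.5 FPKM in HR-19011 libraries, against 45.1, 46.3 and 48.4 FPKM in vehicle libraries. POLR3K, which supports RNA cleavage, termination and reinitiation, fell 4.39-fold (log2 fold change -2.04, SE 0.0480, limma adjusted p = 1.11e-09), with the groups far apart. POLR3K lies on chromosome 16 from 46407 to 53608. SNRNP25, whose exons overlap 8.10% of those of POLR3K on the opposite strand, averaged 21.8 FPKM in HR-19011 and 66.9 FPKM in vehicle, and the part of this overlap was not tested. POLR3A had 12.6, 13.4 and 12.9 FPKM in HR-19011 libraries, against 19.0, 18.9 and 18.8 FPKM in vehicle libraries. POLR3A, the largest catalytic subunit, fell 1.46-fold (log2 fold change -0.51, SE 0.0359, limma adjusted p = 1.02e-06). POLR3B had 12.4, 13.2 and 13.4 FPKM in HR-19011 libraries, against 9.82, 9.19 and 9.86 FPKM in vehicle libraries. POLR3B, the second catalytic subunit, was 1.35-fold higher (log2 fold change 0.40, SE 0.0441, limma adjusted p = 2.49e-05), so the catalytic partners moved in opposite directions without overlap in either gene.

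Other subunits of RNA polymerase III moved less. POLR3E fell 1.34-fold, and POLR3D, its partner in a dimer that takes part in initiation and termination, was 1.18-fold higher as deposited and -0.022 on the log2 scale after TMM scaling. POLR3F, which with POLR3C and POLR3G or POLR3GL forms the initiation trimer, fell 1.23-fold. POLR3C averaged 20.6 ± 0.711 FPKM in HR-19011 and 16.7 ± 1.08 FPKM in vehicle (SD, n = 3 each), 1.23-fold higher, a call that was lost after TMM scaling (log2 fold change 0.044, adjusted p = 0.399). POLR3B and POLR3GL kept their rise under all 4 rescalings of the libraries that were tried.

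Among the 6 initiation factors of RNA polymerase I, 3 fell, 1 rose and 2 did not pass the test. Of all tested genes, 38.0% fell and 46.4% rose. UBTF had 23.3, 24.8 and 23.4 FPKM in HR-19011 libraries, against 45.3, 46.4 and 47.5 FPKM in vehicle libraries. UBTF, the DNA-binding factor that keeps ribosomal RNA genes open, fell 1.95-fold (log2 fold change -0.93, SE 0.0358, limma adjusted p = 1.95e-08), just short of 2-fold and without overlap. UBTF lies on chromosome 17 from 44205040 to 44221304. RRN3 had 10.6, 9.96 and 9.58 FPKM in HR-19011 libraries, against 16.0, 15.0 and 15.5 FPKM in vehicle libraries. RRN3, the growth-regulated factor that bridges RNA polymerase I to the promoter complex, fell 1.55-fold (log2 fold change -0.58, SE 0.0447, limma adjusted p = 1.97e-06); 25.0% of its 50-base stretches occur in other genes, mostly the pseudogene RRN3P2. The TAF1 genes encode the subunits that with TBP form the promoter selectivity factor SL1, and they did not move together. TAF1A fell 1.61-fold, to 4.10 ± 0.119 FPKM in HR-19011, against 6.62 ± 0.579 FPKM in vehicle (SD, n = 3 each). TAF1D averaged 47.1 ± 1.57 FPKM in HR-19011 and 39.3 ± 1.91 FPKM in vehicle, 1.20-fold higher, with a log2 fold change of 0.25 that became 0.0031 after TMM scaling. TAF1B had a log2 fold change of 0.06 with a 95% interval from -0.05 to 0.17, and TAF1C of 0.01 with an interval from -0.12 to 0.14, so neither was detectably different as deposited; after TMM scaling both were called lower, at -0.17 for TAF1B and -0.23 for TAF1C.

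Factors of RNA polymerase III were mostly lower. GTF3A, which is TFIIIA and binds the 5S gene, and the TFIIIC subunits GTF3C1 to GTF3C6, which recognise the internal promoters of transfer RNA genes, gave 5 lower, 1 higher and 1 not called, with a median log2 fold change of -0.68. GTF3A had 47.9, 50.9 and 45.9 FPKM in HR-19011 libraries, against 79.5, 79.5 and 79.1 FPKM in vehicle libraries. GTF3A fell 1.65-fold (log2 fold change -0.71, SE 0.0380, limma adjusted p = 1.70e-07), and its vehicle libraries were nearly identical to each other. GTF3C6, GTF3C5 and GTF3C4 fell 1.79-fold, 1.68-fold and 1.70-fold, and GTF3C2 fell 1.29-fold. The largest subunit, GTF3C1, averaged 17.4 ± 0.385 FPKM in HR-19011 and 16.7 ± 0.397 FPKM in vehicle (SD, n = 3 each) and was not called, with an interval of the log2 fold change from -0.02 to 0.14, but was lower after TMM scaling (-0.19). GTF3C3 was 1.15-fold higher as deposited (log2 fold change 0.19, limma adjusted p = 0.000430) and -0.046 after TMM scaling.

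All 3 TFIIIB genes fell modestly. BDP1 had 5.01, 5.56 and 5.09 FPKM in HR-19011 libraries, against 7.48, 7.16 and 7.74 FPKM in vehicle libraries. BDP1, a subunit common to all forms of TFIIIB, fell 1.43-fold (log2 fold change -0.44, SE 0.0506, limma adjusted p = 3.13e-05). BRF1 had 5.65, 5.82 and 4.97 FPKM in HR-19011 libraries, against 7.29, 7.20 and 7.62 FPKM in vehicle libraries. BRF1, used at transfer RNA and 5S genes, fell 1.34-fold (log2 fold change -0.37, SE 0.0572, limma adjusted p = 0.000246), and again no treated library reached a vehicle value. BRF2, used at U6-type promoters, fell 1.20-fold (log2 fold change -0.24, limma adjusted p = 0.00271); 59.0% of its exon bases overlap ADGRA2 on the opposite strand, which averaged 1.39 FPKM in HR-19011 and 0.0216 FPKM in vehicle. MAF1 had 60.9, 59.8 and 59.0 FPKM in HR-19011 libraries, against 48.3, 51.2 and 49.6 FPKM in vehicle libraries. MAF1, the repressor that binds RNA polymerase III when nutrients are short and that mTORC1 inactivates by phosphorylation, was 1.21-fold higher (log2 fold change 0.26, SE 0.0309, limma adjusted p = 3.66e-05), a call lost after TMM scaling (log2 fold change 0.013, adjusted p = 0.718). Its RNA level does not report phosphorylation.

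Ratios of members within a library do not change when the library is scaled by a single factor, though quantile normalization can change them. In the deposited values 8 pairs were compared. The POLR3G to POLR3GL ratio was 0.109, 0.112 and 0.113 in HR-19011 libraries, against 1.23, 1.04 and 1.04 in vehicle libraries, 9.88-fold lower. The POLR1G to POLR1E ratio was 0.0773, 0.0667 and 0.0767 in HR-19011 libraries, against 0.440, 0.440 and 0.471 in vehicle libraries, 6.13-fold lower. The POLR3A to POLR3B ratio averaged 0.996 ± 0.0302 in HR-19011 and 1.97 ± 0.0807 in vehicle (SD, n = 3 each), and POLR2A to POLR2B averaged 0.551 ± 0.0249 in HR-19011 and 0.818 ± 0.0261 in vehicle. Within RNA polymerase I the balance moved the other way and less, with POLR1A to POLR1B at 1.90 ± 0.0416 in HR-19011 and 1.58 ± 0.0674 in vehicle. Across enzymes, POLR1A to POLR2A averaged 0.278 ± 0.00574 in HR-19011 and 0.412 ± 0.00187 in vehicle, whereas POLR3A to POLR2A averaged 0.429 ± 0.00292 in HR-19011 and 0.381 ± 0.0121 in vehicle. BRF1 to BRF2 averaged 0.675 ± 0.00471 in HR-19011 and 0.755 ± 0.0373 in vehicle. None of the 8 ratios overlapped between groups. Nor did most single genes: of all tested genes, 38.3% lay wholly below vehicle and 46.9% wholly above. Each ratio gave p = 0.1 in an exact two-sided permutation test of log2 ratios, the smallest that 3 against 3 libraries allow. This p was also 0.1 after Benjamini-Hochberg adjustment over 8 pairs.

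**Figure D4:**
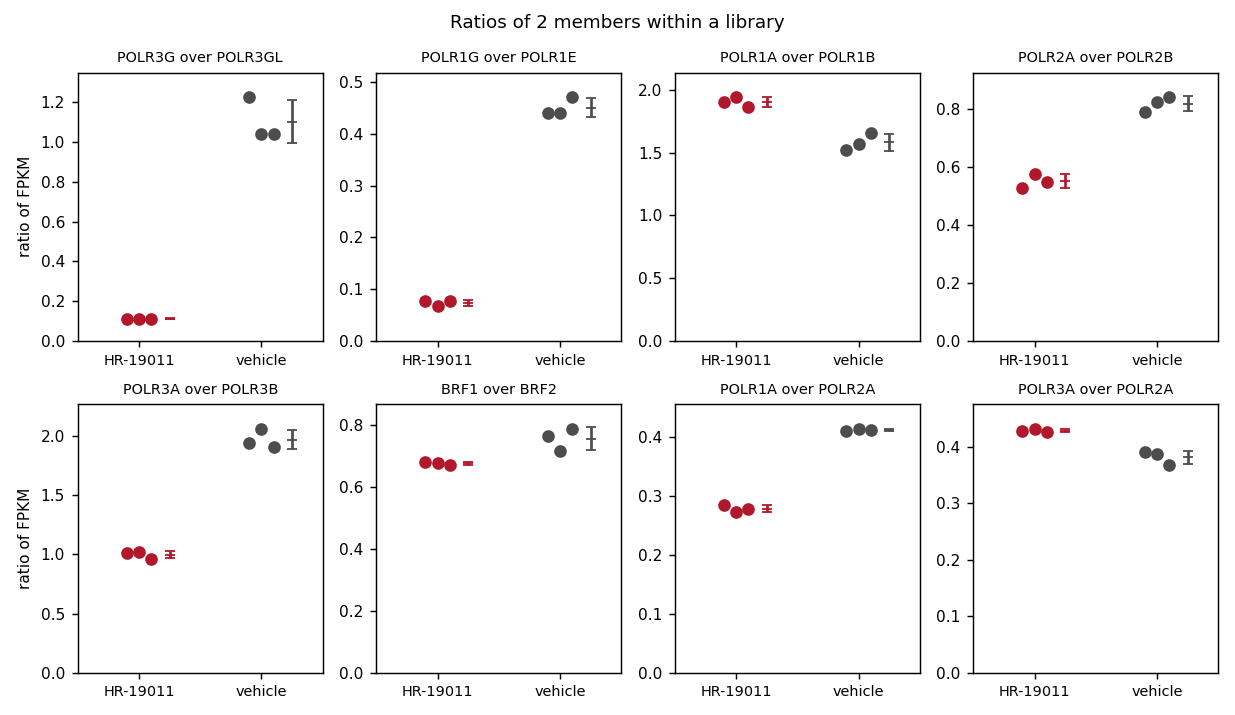
Ratio of the FPKM of 2 members in each library (vertical axes from 0) for the 8 pairs, with HR-19011 in red left of vehicle in grey, points for libraries and bars for mean ± SD. The ratio of POLR3G to POLR3GL is 0.109 to 0.113 in HR-19011 and 1.04 to 1.23 in vehicle, and in no panel do the groups overlap. Most single tested genes did not overlap either, with 38.3% below vehicle and 46.9% above.

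Summed over members, the classes differed in the size of their loss. The 5 common subunits summed to 115 ± 1.39 FPKM in HR-19011 and 275 ± 3.76 FPKM in vehicle (SD, n = 3 each), a ratio of 0.416. RNA polymerase I subunits summed to 87.1 ± 2.88 FPKM in HR-19011 and 174 ± 3.34 FPKM in vehicle, a ratio of 0.501. RNA polymerase III subunits summed to 137 ± 3.34 FPKM in HR-19011 and 194 ± 3.89 FPKM in vehicle, a ratio of 0.706, and RNA polymerase II subunits to 319 ± 1.06 FPKM in HR-19011 and 396 ± 7.99 FPKM in vehicle, a ratio of 0.805. Within each library, the sum of common subunits relative to that of RNA polymerase II subunits was 0.355 to 0.362 in HR-19011 and 0.691 to 0.700 in vehicle. The RNA polymerase II sum includes POLR2M, POLR2J2 and POLR2J3, which did not fall as deposited. These sums are dominated by the more abundant members and describe the classes without a test.

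The direction of small changes depended on the scaling of the libraries. Over all tested genes, the median log2 fold change moved by -0.22 with TMM scaling, by -0.12 with quantile normalization and by 0.12 with TPM. The higher genes made up 55.0% of all called genes in the deposited values, 40.1% with TMM scaling, 46.4% with quantile normalization and 62.2% with TPM. Among members, 34 of the 36 lower calls and 2 of the 9 higher calls kept direction and call under all 4 rescalings; the exceptions among lower ones were POLR2B and POLR2G. Relative to the median of all tested genes, the log2 fold changes were -2.86 for POLR1G, -2.27 for POLR3G, -1.72 for POLR2L, -0.77 for POLR2A, 0.64 for POLR3GL and 0.19 for MAF1.

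**Figure D5:**
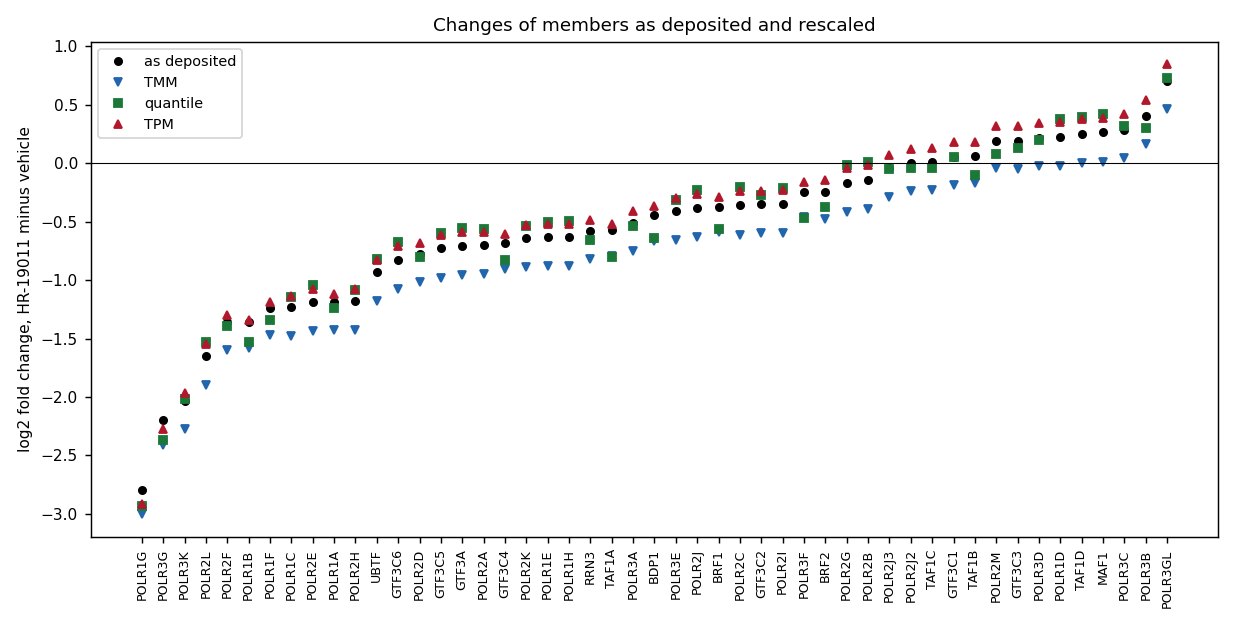
Log2 fold change (HR-19011 minus vehicle, vertical axis) of the members in the deposited values and with TMM scaling, quantile normalization and TPM, with members ordered by the deposited value. All 4 symbols lie under 0 for the members left of POLR2G, and POLR3B and POLR3GL at the right end stay above 0 throughout.

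Genes that assemble the polymerases or work next to them were read from 4 further lists. Their counts are set against 38.0% lower and 46.4% higher among all tested genes. Of 15 assembly factors, 10 fell, 3 rose and 2 did not pass, with a median log2 fold change of -0.31 against 0.07 for all tested genes. RUVBL1 and RUVBL2, the ATPases of the chaperone complex that helps build polymerases, fell 2.53-fold and 2.14-fold; RUVBL1 averaged 24.6 ± 1.30 FPKM in HR-19011 and 62.4 ± 0.696 FPKM in vehicle (SD, n = 3 each). PFDN6, a prefoldin subunit, fell 1.93-fold, whereas UXT, a prefoldin-like protein, rose 1.38-fold. Of 33 general transcription factors of RNA polymerase II, 19 fell, 11 rose and 3 did not pass, with a median of -0.26. GTF2A2 of TFIIA, GTF2F2 of TFIIF and GTF2H2 of TFIIH, which has near-identical copies, fell 1.67-fold, 1.60-fold and 1.68-fold, and TAF12 of TFIID rose 1.81-fold. TBP, which serves all 3 polymerases and was picked out after its values were seen, averaged 17.4 ± 0.927 FPKM in HR-19011 and 25.1 ± 0.218 FPKM in vehicle, a 1.44-fold fall.

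Of 22 pausing and elongation factors, 11 fell, 5 rose and 6 did not pass, with a median log2 fold change of -0.15. Among all tested genes, 38.0% were lower and 46.4% higher. TCEA1, the elongation factor TFIIS that rescues stalled RNA polymerase II, rose 3.30-fold, to 148 ± 3.19 FPKM in HR-19011, against 44.8 ± 2.46 FPKM in vehicle (SD, n = 3 each; limma adjusted p = 1.15e-09). SUPT16H, a subunit of the histone chaperone FACT, HEXIM1, an inhibitor of P-TEFb, and NELFCD, a subunit of the pausing factor NELF, fell 1.99-fold, 1.91-fold and 1.68-fold. After TMM scaling 18 of these 22 genes were lower and 2 higher, and after conversion to TPM 8 were higher. Of 8 genes for the snRNA activating complex, its activators and the RNA polymerase III transcript-binding protein La, 6 fell, none rose and 2 did not pass, with a median of -0.29. SSB, which encodes La, fell 1.89-fold, SNAPC4 2.05-fold, SNAPC5 1.34-fold and POU2F1 1.33-fold.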

How the data were processed

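The 6 K562 libraries each measured messenger RNA. Per the labels' protocols, libraries were made with a stranded kit for polyadenylated RNA. The authors deposited FPKM per gene with NCBI identifiers, 1 file per library; the submitters' processing notes name GRCh38, StringTie 2.1.3b, SAMtools 1.9, HISAT2 2.1.0 and HISAT, Trimmomatic 0.38, Bowtie2 and DESeq2 1.24.0, with no roles. The sources used here do not give how reads shared by several genes were divided, or whether counting used the strand. Low values of genes up to 1500 bases long did not fall on whole multiples of a read: at the best of 2000 steps, 24.3% to 25.7% lay within 0.1 of one, where 1 fixed step gives 20% by chance. So depth is unknown and no count model was used.

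Genes averaging 1 FPKM or more over the libraries entered limma 3.58.1 (R 4.3.3) as log2(FPKM + 1) (group as the only term, mean-variance trend, two-sided, Benjamini-Hochberg over 11856 genes, threshold 0.05); the script was tested on simulated data. Members were assigned to 9 classes by known function, and every member may be named; of each of 4 further gene lists, up to 4 genes with the smallest p are named, at least 1 per direction. Counts, sums and medians cover all members, of which 1 is not reported here by itself or drawn by name. Members, classes and lists were chosen with earlier results of these data known. Exon overlaps and shared 50-base stretches came from GENCODE annotation on GRCh38, positions from the RefSeq table by NCBI identifier. Replicate numbers were not used to pair the libraries in the main fit. Alternatives were other pseudocounts and filters, rescaled values (unweighted TMM on FPKM, quantile, TPM, equal totals without mitochondrial and globin transcripts), no variance trend, a replicate block, protein-coding genes alone, and each library left out.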

Additional observations from a re-analysis of the deposited data

How the results depend on the processing

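All member calls kept direction and side of the threshold with pseudocounts of 0.1 and 5, without a filter, with a mean of at least 5 FPKM, without the variance trend and among protein-coding genes alone. Leaving out 1 library gave 36 lower and 9 higher members each time, with 9600 to 9894 for all genes called. Calls that depended on scaling came as follows, and the cause was not tested. TMM scaling left 2 members higher (0 for POLR1C and POLR1D, RNA polymerase II subunits, RNA polymerase I factors, TFIIIA with TFIIIC, and MAF1; 2 for RNA polymerase III subunits) and made 5 RNA polymerase I factors lower. It made 9 RNA polymerase II subunits lower, POLR2J2 and POLR2J3 included. It made 18 elongation factors lower and 2 higher, 5 general transcription factors higher and 1 assembly factor higher. Log2 fold changes that turned under TMM were -0.024 for POLR1D, -0.24 for POLR2J2, -0.044 for POLR2M, -0.022 for POLR3D, -0.17 for TAF1B, -0.23 for TAF1C, -0.19 for GTF3C1 and -0.046 for GTF3C3. After conversion to TPM 2 RNA polymerase I factors (1 as deposited), 2 TFIIIA and TFIIIC genes (1 as deposited) and 8 elongation factors (5 as deposited) were higher. The same conversion turned POLR2J3 to 0.074. Quantile normalization turned POLR2B to 0.014, POLR2J2 to -0.039, TAF1B to -0.10 and TAF1C to -0.042. POLR2J2 was -0.0040 with equal totals without mitochondrial and globin transcripts and -0.040 to 0.048 when 1 library was left out. TAF1C was -0.048 to 0.046 when 1 library was left out, and its sign turned without HR-19011 replicate 2 (-0.018) or vehicle replicate 1; that of POLR2J2 turned without HR-19011 replicate 1 (-0.028), HR-19011 replicate 2 (-0.011) or vehicle replicate 1.

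The labels number replicates alike in both groups. Deviations of same-numbered libraries correlated at -0.034, -0.0045 and -0.11, so no pairing was seen. With 3 libraries per group these values cannot exclude pairing, and the main fit used group alone. With the replicate block, the number of all genes called was 9880, with 36 members lower and 9 higher. Ratios of FPKM + 1 kept direction for all 8 pairs. Without counts, the depth behind low members such as POLR1G in HR-19011 cells cannot be given.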
